A study of Danio rerio with 54 samples.

Results

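PTGR1, prostaglandin reductase, is the gene ENSDARG00000087017, which the deposited table calls "PTGR1 (1 to many)" and the RefSeq gene table calls ptgr1.2; it is 1 of 31953 genes in the table. It was selected on its normalised counts, for how they moved across the 18 groups, so its own levels, differences and ranks below are a description and carry no test. RNA from whole zebrafish embryos, pooled by 30, was sequenced in 54 libraries, 3 for each of 18 groups. Embryos were of a germline nfe2 knockout line (KO), in which TALEN cutting had removed 8 bases of exon 3, or of the wildtype AB strain (WT). Both were kept in tBOOH (tert-butyl hydroperoxide, an organic peroxide) at 1 mM, in diquat (a redox-cycling herbicide) at 20 µM or in water, for 4 h from 2, 48 or 96 hours post fertilisation (hpf), and were frozen after 4 h of recovery. The sample descriptions give 2, 48 and 96 hpf as the time of sampling, which conflicts with this dosing and recovery. Groups are named here by those times, read as the start of dosing and not as the age at freezing. In WT water 11 matched gastrula genes summed to 237 to 284 in the 2 hpf series and 17.7 to 27.9 in the 48 hpf series. The sample descriptions place KO on the AB background, while the growth protocol has the TALENs injected into AB/TL hybrid embryos, and a strain difference cannot be told apart from genotype.

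In mammals PTGR1 is an NADPH-dependent enzyme of the medium-chain reductase family. It reduces the double bond of 15-keto prostaglandins, which ends their signalling, and that of reactive aldehydes such as hydroxynonenal that form when lipids are oxidised, and it can also oxidise leukotrienes. In rodents it is induced by compounds that activate Nrf2, a relative of Nfe2 in the CNC family of leucine zipper transcription factors, which switches on thioredoxin, glutathione and NADPH genes. Whole embryos mix all cell types, so fewer cells of a type and less RNA per cell cannot be told apart in any value below.

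The libraries held 0.527 to 1.04 M reads, with a median of 0.772 M. nfe2 itself had group means of 16.5 to 20.2 in KO and 5.47 to 11.6 in WT embryos at 2 hpf and at most 1.93 in both genotypes later. An 8-base deletion need not lower the transcript, so these levels do not check the labels. At 96 hpf the liver and intestine marker sums of all KO libraries lay below those of all WT libraries. At 48 hpf tBOOH replicates 2 and 3 and water replicate 2 of KO stood apart with high liver and intestine markers. The 96 hpf markers are taken up beside PTGR1 and the prostaglandin and antioxidant lists, and 48 hpf liver sums beside PTGR1. Results for txn and the other genes come from the same libraries, and the part of these markers in them was not tested.

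PTGR1 was near the detection limit at 2 hpf, high at 48 hpf under tBOOH alone, and high at 96 hpf under both oxidants. Values are normalised counts, which are reads divided by 1 size factor per library, with mean ± SD of 3 libraries. At 2 hpf the 18 libraries together held 22 reads of PTGR1, with at most 4 in a library and none in 4 libraries, and group means lay between 0.469 and 2.02. It did not pass the filter for testing at that stage (a value of 10 in 3 libraries), and no difference was detectable at this depth.

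At 48 hpf the KO libraries in tBOOH had PTGR1 values of 31.8, 41.3 and 87.7, against 0.974, 0.813 and 0 in KO water. The WT libraries in tBOOH had 28.0, 26.3 and 26.2, against 1.68, 0 and 0.829 in WT water. In both genotypes all 3 tBOOH libraries lay above all 3 water libraries, and no water library held more than 2 reads. Summed over the group, 165 reads in KO tBOOH stood against 2 in KO water, a depth-adjusted ratio of 92.7 with a 95% exact counting interval of 25.3 to 772. For WT, 92 reads in tBOOH stood against 3 in water, a ratio of 27.5 (9.14 to 136). The intervals cover counting error only. On the log2(value + 1) scale, which understates changes of low genes, the differences were 5.02 ± 0.56 (SE) in KO and 4.03 ± 0.56 in WT.

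Diquat left PTGR1 near its water level at 48 hpf. The KO diquat libraries had 0.873, 1.77 and 0.944, which overlapped KO water. The WT diquat libraries had 6.05, 0.973 and 0.980, with a single library above all those of WT water. The log2 differences from water were 0.50 ± 0.56 in KO and 0.83 ± 0.56 in WT. PTGR1 passed the filter at this stage only through the tBOOH groups.

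**Figure D1:**
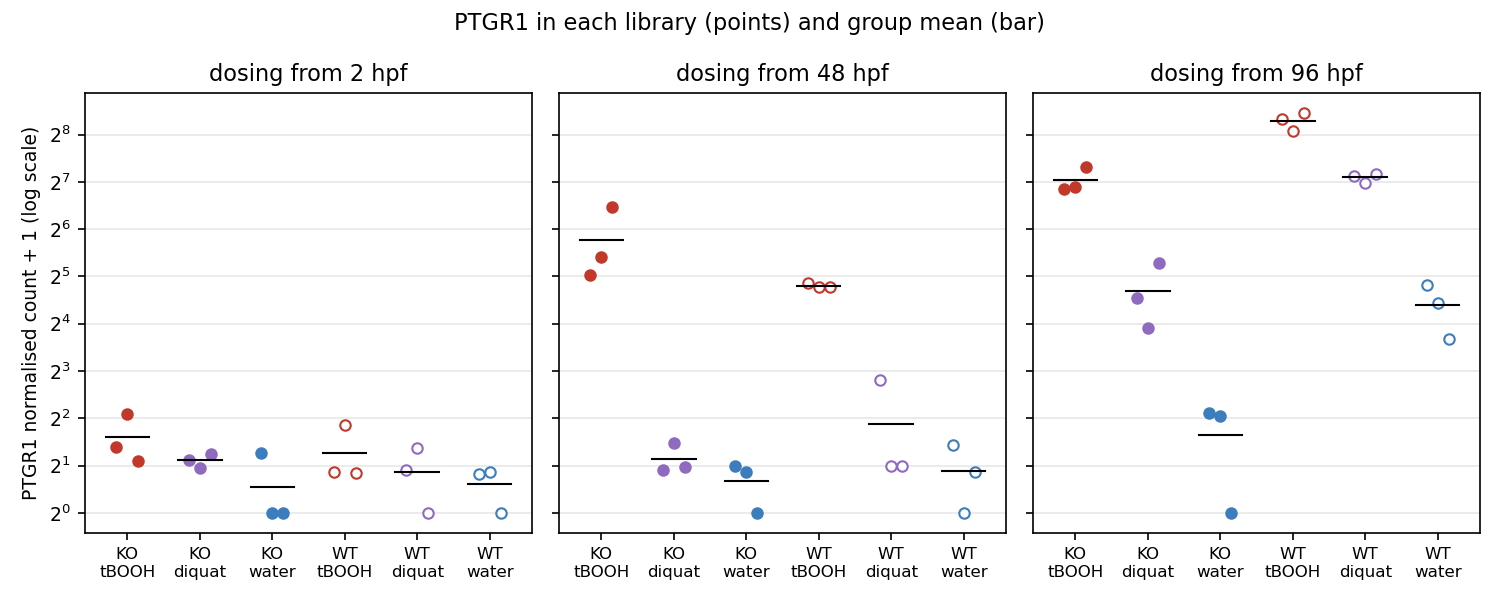
PTGR1 normalised count + 1 (log2-spaced axis) in each of the 54 libraries, by genotype and treatment, with filled points for KO, open points for WT and a bar at the mean of 3 libraries. At 48 hpf the tBOOH groups alone stand clear of water, and at 96 hpf all 4 oxidant groups lie above the water group of their genotype, with each KO group below its WT counterpart.

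At 96 hpf PTGR1 was higher in both oxidants than in water, and lower in KO than in WT embryos in every treatment. The KO libraries had 115, 118 and 158 in tBOOH, 22.3, 14 and 37.8 in diquat, and 3.29, 3.13 and 0 in water. The WT libraries had 319, 268 and 347 in tBOOH, 138, 125 and 143 in diquat, and 27.2, 20.6 and 11.8 in water. No pair of groups within a genotype overlapped, and in each treatment all 3 KO libraries lay below all 3 WT libraries.

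The tBOOH groups averaged 130 ± 24.0 in KO and 311 ± 40.0 in WT embryos (SD, n = 3 each), 60.8 times the mean of KO water and 15.7 times that of WT water. The diquat groups averaged 24.7 ± 12.1 in KO and 135 ± 9.49 in WT embryos, 11.5 and 6.81 times water. KO water held only 6 reads in all, 3 in each of replicates 1 and 2 and none in replicate 3, so the KO ratios are loose. On the log2(value + 1) scale the tBOOH differences from water were 5.64 ± 0.38 (SE) in KO and 3.97 ± 0.38 in WT. The diquat differences were 3.19 ± 0.38 in KO and 2.78 ± 0.38 in WT. Between the genotypes KO minus WT was -2.93 ± 0.38 in water, -2.51 ± 0.38 in diquat and -1.26 ± 0.38 in tBOOH.

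The log2 response to tBOOH at 96 hpf was 1.67 ± 0.54 larger in KO than in WT. The size of this difference depends on KO water replicate 3, which had no read. Without that library the difference was smaller but still positive, at 0.98, and with a pseudocount of 5 it was 0.55. From summed reads, the depth-adjusted ratio of tBOOH to water was 60.9 in KO (95% exact counting interval 27.7 to 167). In WT it was 15.6 (12.02 to 20.6). These intervals did not overlap, but they cover counting error only. In normalised counts the step went the other way, since tBOOH added 128 in KO and 292 in WT embryos. Of all 11436 genes, 0.324% were called for a genotype difference in the tBOOH response. The response of PTGR1 to diquat differed by 0.41 ± 0.54, within its error. At 48 hpf the log2 response to tBOOH was 0.99 ± 0.79 larger in KO than in WT. The level within tBOOH was higher in KO at 48 hpf and lower in KO at 96 hpf. KO minus WT in tBOOH was 0.84 ± 0.56 at 48 hpf, with no overlap of the libraries, and -1.26 ± 0.38 at 96 hpf. The 48 hpf value was 0.42 without KO tBOOH replicate 3, the library at 87.7.

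Ordered by mean, WT tBOOH at 96 hpf stood first, clear of the rest. WT diquat and KO tBOOH at 96 hpf followed and overlapped each other. KO tBOOH at 48 hpf came next at 53.6 ± 29.9, and then WT tBOOH at 48 hpf (26.8 ± 0.990), KO diquat at 96 hpf and WT water at 96 hpf (19.9 ± 7.76), of which neighbours overlapped. The other 11 group means were 2.67 or less, and all neighbours among them overlapped. In water, the WT level was thus 19.9 ± 7.76 at 96 hpf and 0.837 ± 0.842 at 48 hpf, and the KO level 2.14 ± 1.86 and 0.596 ± 0.522. Among all genes tested, the log2 rise of PTGR1 in tBOOH ranked 1 of 9725 at 48 hpf in both genotypes. At 96 hpf it ranked 2 of 11436 in KO and 3 in WT under tBOOH, and 1 in both under diquat.

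The 96 hpf differences between genotypes moved with markers of several tissues. Liver markers (16 genes such as secreted plasma proteins) summed to 512 to 642 in KO water and 3663 to 3827 in WT water, and all 14 tested were lower in KO by limma at a Benjamini-Hochberg adjusted p under 0.05. Intestine markers summed to 120 to 174 in KO water and 985 to 1170 in WT water, with 10 of 10 tested lower, and 10 of 11 exocrine pancreas markers were lower too (sums of 223 to 279 in KO water and 1066 to 1259 in WT water). Erythroid markers summed to 254 to 408 in KO water and 2060 to 2542 in WT water, with 4 of 5 tested lower. Epidermis markers summed to 4127 to 4935 in KO water and 5626 to 5706 in WT water, with 3 of 8 lower. Pronephros sums were lower too, at 80.1 to 108 in KO water and 169 to 190 in WT water. Neutrophil and macrophage sums overlapped, at 96.1 to 114 in KO water and 111 to 118 in WT water. Mitochondrial mRNA sums went the other way, at 45614 to 51605 in KO water and 32026 to 35693 in WT water. Of all 11436 genes, 13.1% were called lower in KO water and 23% called at all. In tBOOH the liver sums were 782 to 1472 in KO and 3578 to 3782 in WT, and in diquat 736 to 1439 in KO and 2661 to 2975 in WT. The pancreas sums overlapped between genotypes in tBOOH, at 420 to 787 in KO and 564 to 876 in WT. So did the erythroid sums, at 854 to 2215 in KO and 1127 to 1805 in WT. Of the pancreas markers 4 of 11, and of the erythroid markers 4 of 5, were called lower in KO tBOOH than in WT tBOOH. Of all 11436 genes, 1224 were called lower in that comparison and 20.7% called at all. The part of these markers in the lower PTGR1 of KO embryos was not tested.

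Marker levels also differed between oxidant and water within a genotype. In WT the liver sum was 3578 to 3782 in WT tBOOH, 2661 to 2975 in WT diquat and 3663 to 3827 in WT water, and the intestine sum 880 to 923, 614 to 755 and 985 to 1170. In WT tBOOH limma called 1 of 14 tested liver markers, higher, and edgeR 3, against 2.3% of all genes by limma. In WT diquat edgeR called 1 and limma 0, against 0.245%; limma gave 1 with an unadjusted p under 0.05. The WT pancreas sum was 564 to 876 in tBOOH, 355 to 559 in diquat and 1066 to 1259 in water: limma called 0 of 11 in tBOOH (5 at an unadjusted p under 0.05) and 4 lower in diquat, and edgeR 3 and 10. The WT erythroid sum was 1127 to 1805 in tBOOH, 860 to 1297 in diquat and 2060 to 2542 in water, with 0 and 1 of 5 called by limma and by edgeR (1 at an unadjusted p under 0.05 in each). In KO 8 of 14 liver markers and 6 of 11 exocrine pancreas markers were called higher in tBOOH than in water (edgeR 6 of each list), against 7.49% of all genes called. The KO erythroid sum was 854 to 2215 in tBOOH and 254 to 408 in water, with 1 of 5 markers called higher. Epidermis sums were lower in tBOOH than in water in both genotypes: 2264 to 3533 in KO tBOOH and 4127 to 4935 in KO water, and 3265 to 3473 in WT tBOOH and 5626 to 5706 in WT water. Of 8 tested, 2 were higher and 4 lower in KO tBOOH, and 1 higher and 4 lower in WT tBOOH (edgeR 6 called in each). In KO diquat 0 of 14 liver markers were called by limma or edgeR, against 0.315% of all genes by limma, with 10 at an unadjusted p under 0.05. The part of these markers in the PTGR1 differences was not tested.

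**Figure D2:**
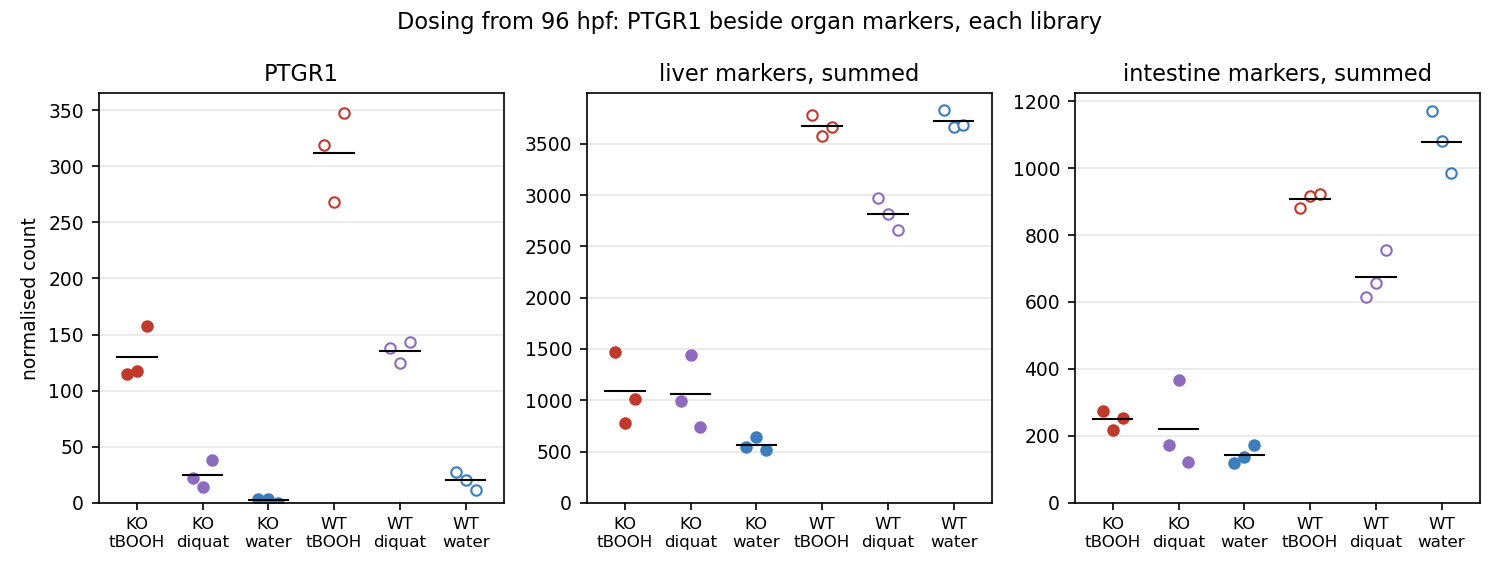
Normalised counts of PTGR1 and summed normalised counts of the liver and intestine marker lists in each library of the 96 hpf series (filled points KO, open points WT, bars at the mean of 3). PTGR1 is highest in WT tBOOH, while the liver sum there (3578 to 3782) overlaps that of WT water (3663 to 3827) and all KO libraries hold 1472 or less.

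At 48 hpf the marker sums were uneven within KO. The KO tBOOH libraries had liver sums of 87.3, 2693 and 1263 beside PTGR1 values of 31.8, 41.3 and 87.7. The KO water libraries had liver sums of 92.5, 1064 and 117 beside PTGR1 values of 0.974, 0.813 and 0. The part of these markers in the PTGR1 difference was not tested. Leaving out each library in turn, the KO tBOOH difference stayed between 4.61 and 5.32.

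In the RefSeq gene order of the GRCz12tu assembly PTGR1 lies between a thioredoxin gene, txnb, and a second copy of prostaglandin reductase, ptgr1.1. No other gene overlaps it there. The counts rest on the older GRCz10 annotation, so only the order is used; these neighbours were chosen after values were seen. The table calls them txn (ENSDARG00000044125) and ptgr1 (ENSDARG00000024877). Thioredoxin passes electrons from NADPH to oxidised protein thiols and to peroxiredoxins.

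txn moved with PTGR1, and ptgr1 was called in no comparison of an oxidant with water. At 48 hpf txn had 84.6, 102 and 155 in KO tBOOH, against 9.74, 20.3 and 12 in KO water. In WT it had 74.6, 87.5 and 93.9 in tBOOH, against 9.26, 10.3 and 14.9 in water. The groups did not overlap, and the log2 differences were 2.95 ± 0.29 in KO and 2.81 ± 0.29 in WT (limma, adjusted p = 2.71e-05 and 6.21e-05).

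At 96 hpf txn averaged 228 ± 13.6 in KO tBOOH, against 23.1 ± 0.242 in KO water (SD, n = 3 each). It averaged 359 ± 42.5 in WT tBOOH, against 50.8 ± 5.01 in WT water. The log2 differences were 3.24 ± 0.24 and 2.79 ± 0.24 (limma, adjusted p = 8.28e-11 and 1.77e-08), and both calls held without any 1 library. In diquat it averaged 55.7 ± 29.4 in KO and 116 ± 22.6 in WT embryos, and the calls (limma, adjusted p = 0.0357 and 0.0242) were lost without 1 of several libraries: KO diquat replicate 3 or any KO water library, and WT diquat replicate 1 or 2 or any WT water library (adjusted p up to 0.135 and 0.373). With only the compared groups fitted, the KO diquat call was lost too (adjusted p = 0.850). KO minus WT in water was -1.10 ± 0.24 (limma, adjusted p = 0.00134). In tBOOH KO minus WT was -0.65 and not called (limma, adjusted p = 0.0549). It was called there by edgeR (adjusted p = 0.00988). Limma called it with a pseudocount of 5 or only the compared groups fitted (adjusted p = 0.0375 and 0.00700).

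ptgr1, the second copy, had group means of 7.63 to 24.7 over the 18 groups and was called in 0 of 12 comparisons of an oxidant with water (limma, smallest adjusted p = 0.211). Its log2 differences from water lay between -0.82 and 0.35. At 96 hpf it had 10.6, 9.06 and 3.24 in KO tBOOH, against 11, 17.8 and 11.2 in KO water, and in WT it had 22.0, 21.8 and 17 in tBOOH, against 19.9, 18.1 and 17.1 in water. Between genotypes it was lower in KO tBOOH than in WT tBOOH at 96 hpf (limma, log2 -1.42 ± 0.37, adjusted p = 0.00717), a call lost without KO tBOOH replicate 3 (-0.97, adjusted p = 0.0719). How reads shared by the 2 copies were assigned is not given in the sources used here, so the level of each is uncertain to that extent. Farther out, slc7a8a, an amino acid transporter gene, was called in 4 of 12 comparisons, 2 lower at 2 hpf and 2 higher in tBOOH at 96 hpf. The last 2 calls were lost without 1 of several libraries (limma, adjusted p up to 0.216). nedd8 and nat8l were called in 0 of 12 comparisons, svep1 in 0 of 8 and haus3 in 0 of 4, and poln was too low to test. Of all genes 2.83% were called in WT tBOOH at 2 hpf. With an oxidant 0% to 0.195% were called at 48 hpf and 0.245% to 7.49% at 96 hpf.

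**Figure D3:**
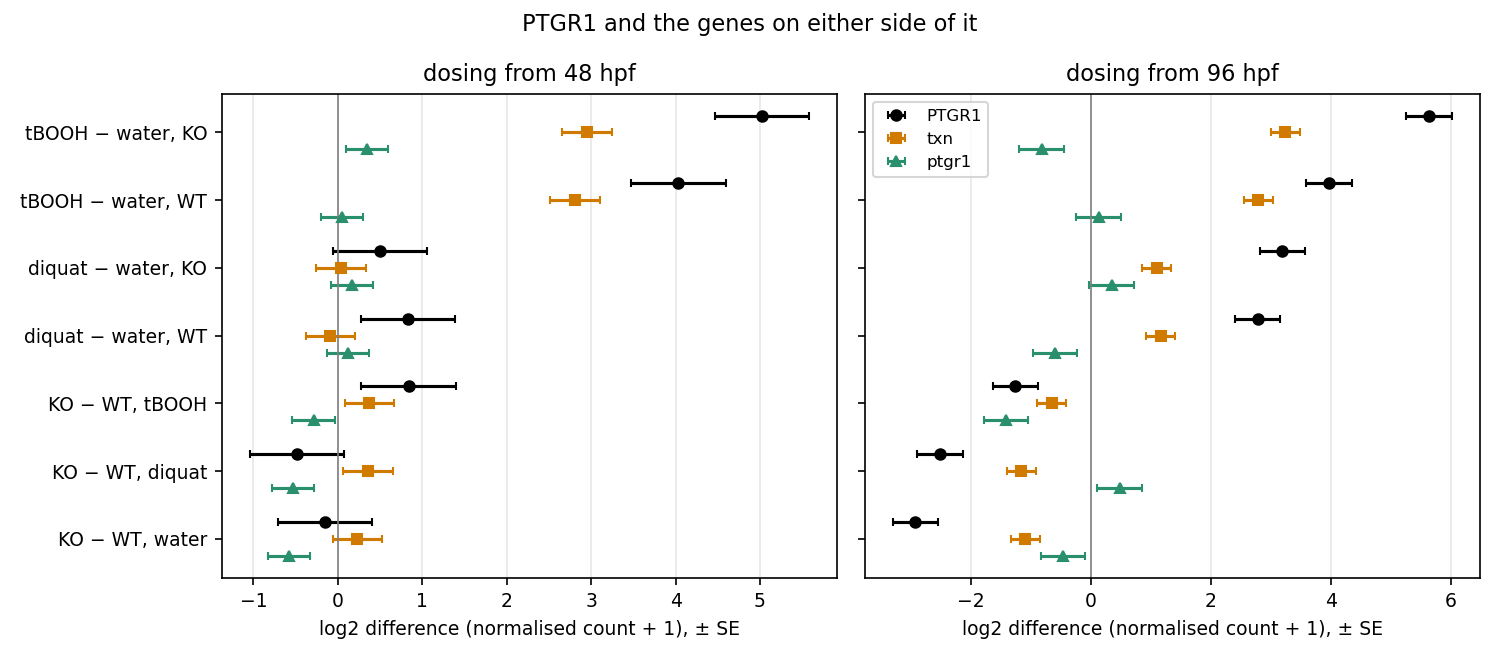
Log2 differences in normalised count + 1 (± SE, 6 groups of 3 libraries per fit) of PTGR1 (circles), txn (squares) and ptgr1 (triangles) for oxidant minus water and KO minus WT, in the 48 and 96 hpf series. Under tBOOH the circles lie between 3.97 and 5.64 and the squares between 2.79 and 3.24, while the triangles stay between -0.82 and 0.35 for every oxidant.

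Over the 18 group means, of 7393 genes with a named symbol and a mean of 20 in some group, the patterns most like that of PTGR1 on the log2 scale included gsto2, a glutathione transferase of the omega class (Pearson r = 0.966), txn (0.938), sepw2b, a selenoprotein (0.933), tktb, a transketolase of the pentose phosphate pathway (0.924), gsr, glutathione reductase (0.907), papss2a, a sulfate donor synthase (0.902), and tmem238a (0.890). Over the 12 differences of an oxidant from its water group the closest were txn (0.966), gsto2 (0.945), pir (0.938), SLA (1 to many) (0.933), aifm4 (0.929), cct5 (0.916), synm (0.915) and sqrdl (0.913). txn and gsto2 led both. The points share libraries, depth and water groups, and the choice rests on the measure: by Spearman's rho 2 of the first 8 and 1 of the second 8 were shared. The second copy, ptgr1, had r = -0.0923 and -0.377.

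Other medium-chain reductases had no calls with an oxidant at 48 or 96 hpf, a share near that of all genes. Of 12 relatives matched in the table, 6 could be tested at 48 hpf and 8 at 96 hpf, and 0 were called by limma in all 8 comparisons of an oxidant with water at those stages, against 0% to 0.195% of all genes at 48 hpf and 0.245% to 7.49% at 96 hpf, and edgeR called 0 as well; at most 1 in each had an unadjusted p under 0.05. vat1, a synaptic vesicle protein homolog, had group means of up to 352 and oxidant differences between -0.40 and 1.01. adh5, which reduces S-nitrosoglutathione, had -0.68 to 0.47, and adh8b, an alcohol dehydrogenase, -0.43 to 0.70. cryz, a quinone reductase, had -0.80 to 0.51, mecr, the mitochondrial enoyl reductase, -0.65 to 0.79, and rtn4ip1 -0.47 to 0.45. cryzl1 was called once, lower in WT tBOOH at 2 hpf, where 2.83% of all genes were called (limma, log2 -0.97, adjusted p = 0.0404), and had 0.54 at most. The second copy, ptgr1, is 1 of the 12 and could be tested, with the values given above. ptgr2 had group means of 1.58 to 7.44 and could not be tested, like vat1l, adh8a and sord. Between genotypes in water at 96 hpf, 23% of all genes were called. There vat1 was higher in KO and mecr lower (limma, log2 0.81 and -1.50). cryz was called lower (-0.94) but lost its call without any of 4 libraries: KO water replicate 2 or 3 or WT water replicate 1 or 2 (adjusted p up to 0.115).

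Prostaglandin and leukotriene genes are the enzymes and receptors around PTGR1's substrates. Of 52 matched, 10 could be tested at 48 hpf and 16 at 96 hpf. With an oxidant at 48 hpf limma and edgeR called 0, and limma gave 3 with an unadjusted p under 0.05 in each oxidant in KO, 1 in WT tBOOH and 0 in WT diquat; of all genes 0% to 0.195% were called there. At 96 hpf KO tBOOH had 3 calls of 16 (edgeR 2), against 7.49% of all genes: ptgs2a, cyclooxygenase, was higher at 19.8 ± 4.36, against 0.732 ± 1.27 in KO water (limma, log2 3.8 ± 0.53, adjusted p = 1.05e-05). That KO water level is near the detection limit, so the log2 differences of ptgs2a that use it are loose. fam213b, a prostamide synthase, was higher and ptgesl lower, and both calls were lost without 1 of several libraries (KO tBOOH replicate 2, KO water replicate 1 or 2 and others, adjusted p up to 0.121 and 0.166). The other oxidant comparisons at 96 hpf had 0 calls by limma and by edgeR, with 0 to 2 at an unadjusted p under 0.05, against 0.245% to 2.3% of all genes. With the water groups of the genotypes compared, 8 of 16 were lower in KO, against 13.1% of all genes, in the comparison where liver, intestine, pancreas and erythroid markers were lower as well; among them were hpgd, which makes the 15-keto substrates of PTGR1, lta4h, which makes leukotrienes, and ptgs2a (log2 -2.09 ± 0.53). The part of those markers in this count was not tested. The calls of ptgdsb and abcc4, among the 8, were lost without single libraries (limma, adjusted p up to 0.0981 and 0.0754).

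The Nrf2-type antioxidant list (49 genes matched) held calls in the groups where PTGR1 was high. In KO at 48 hpf 5 of 28 tested were higher in tBOOH and 0 lower, against 0.195% of all genes called. The count was 10 without KO tBOOH replicate 1 and 2 with only the compared groups fitted. Over all genes the calls also shifted, from 12 to 270 with 1 library left out and 3 with only the compared groups. The KO libraries with uneven liver sums enter these counts, and their part was not tested. In WT 5 of 28 were higher, against 0.165%. In diquat 0 of 28 were called in either genotype by limma or by edgeR, with 0 (KO) and 3 (WT) at an unadjusted p under 0.05, against 0% of all genes in KO and 0.0411% in WT. List medians were 0.68 in KO tBOOH, 0.10 in KO diquat, 0.40 in WT tBOOH and 0.12 in WT diquat, and medians over all genes lay within 0.06 of 0. prdx1, a peroxiredoxin, averaged 93.7 ± 28.7 in KO tBOOH, against 13.8 ± 3.28 in KO water (limma, log2 2.66 ± 0.32, adjusted p = 0.000116). zgc:109934, a ferritin heavy chain gene named fthl31 in the reference table, averaged 81.3 ± 32.9 in KO tBOOH and 6.38 ± 3.49 in KO water, and 48.5 ± 4.18 in WT tBOOH and 5.79 ± 1.60 in WT water.

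At 96 hpf 18 of 35 tested antioxidant genes were higher in KO tBOOH and 0 lower, against 5.46% of all genes called higher, and the list median was 1.09. In WT tBOOH 10 were higher and 1 lower, EPHX1 (1 to many) (ENSDARG00000103298), an epoxide hydrolase, against 2.3% of all genes called. That total of 11 was 6 without WT tBOOH replicate 3 and 7 without WT tBOOH replicate 1 or 2 or WT water replicate 1 or 3, 14 by edgeR and 19 with only the compared groups fitted. Over all genes WT tBOOH calls numbered 121 to 195 with 1 library left out, 382 by edgeR and 703 with only the compared groups. In KO diquat 6 were higher, against 0.315%, and 0 with only the compared groups fitted, where 2 of all genes were called. In WT diquat 2 were higher, gstp1 and txn, against 0.245%. The WT diquat count was 1 without WT diquat replicate 1 or 2 or any WT water library, 4 by edgeR or with a pseudocount of 5, and 5 with only the compared groups fitted. Over all genes WT diquat calls numbered 4 to 26 with 1 library left out and 64 by edgeR. They were 51 with a pseudocount of 5 and 196 with only the compared groups.

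gstp1, a pi class glutathione transferase, averaged 204 ± 29.4 in KO tBOOH, 79.3 ± 4.16 in KO diquat and 38.3 ± 4.99 in KO water. It averaged 357 ± 48.3 in WT tBOOH, 221 ± 6.16 in WT diquat and 103 ± 13.8 in WT water. It was the one list member whose 4 oxidant calls at 96 hpf all held without any 1 library (largest adjusted p by limma 0.026), but its KO diquat call was lost with only the compared groups fitted (adjusted p = 0.312). Like PTGR1 it was highest in WT tBOOH, and WT diquat lay near KO tBOOH. sqstm1, an autophagy receptor, averaged 77.5 ± 9.70 in KO tBOOH, against 12.3 ± 1.91 in KO water (limma, log2 2.56 ± 0.22, adjusted p = 1.61e-09), and 123 ± 21.6 in WT tBOOH, against 52.5 ± 11.2 in WT water (limma, log2 1.22 ± 0.22, adjusted p = 0.00131).

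The list of aldehyde and carbonyl enzymes covers substrates that overlap those of PTGR1. Of 28 tested at 48 hpf, 2 were higher in KO tBOOH, against 0.195% of all genes called: zgc:158387 (mgst3b in the reference table, a microsomal glutathione transferase) and gsto2. Both calls were lost with only the compared groups fitted (adjusted p = 0.173 and 0.285). In WT tBOOH 0 were called by limma and edgeR, with 6 at an unadjusted p under 0.05, against 0.165% of all genes. The gsto2 call in KO was also lost without KO tBOOH replicate 2 or 3 or KO water replicate 1 or 3 (adjusted p up to 0.202). Of 35 tested at 96 hpf, 3 were higher and 1 lower in KO tBOOH, against 7.49% of all genes called, and 2 higher in WT tBOOH, against 2.3%. In KO tBOOH the calls of hagh (higher) and zgc:66350 (gstt2 in the reference table, lower) were lost without 1 of several libraries. Their adjusted p by limma rose to 0.172 and 0.217. The hagh call was also lost by edgeR, and that of zgc:66350 without the filter on low values. In KO diquat gsto2 and zgc:158387 were higher, against 0.315%, and both calls were lost with only the compared groups fitted (adjusted p = 0.162 and 0.284). In WT diquat edgeR called 1 and limma 0, against 0.245%; limma gave 2 with an unadjusted p under 0.05. gsto2 averaged 240 ± 81.6 in KO tBOOH, 41.3 ± 4.02 in KO diquat and 13.4 ± 4.08 in KO water, and 521 ± 86.3 in WT tBOOH, 173 ± 15.8 in WT diquat and 119 ± 9.79 in WT water. Its tBOOH calls at 96 hpf held without any 1 library (limma, log2 4.05 ± 0.22 in KO and 2.11 ± 0.22 in WT, adjusted p = 5.87e-14 and 2.47e-07). The list medians at 96 hpf were 0.02 in KO tBOOH and -0.14 in WT tBOOH, near the medians of all genes.

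Between genotypes at 96 hpf the antioxidant list was lower in KO together with PTGR1. In water 25 of 35 were lower and 1 higher, against 13.1% of all genes called lower and 23% called, with a median of -1.15. Among the lower, the calls of gss, abcc3, fth1a, prdx1, blvrb and ephx1 were lost without single libraries (limma, adjusted p up to 0.226). So was that of tkta, the higher one (adjusted p up to 0.0959). In diquat 16 were lower and 0 higher, against 893 of all 11436 genes called lower and 14.1% called. In tBOOH 17 were lower and 0 higher, against 1224 of all genes called lower and 20.7% called. nqo1, a quinone reductase, averaged 9.29 ± 5.10 in KO water, against 36.8 ± 5.51 in WT water (limma, log2 -1.99 ± 0.32, adjusted p = 3.54e-05). txnrd1, thioredoxin reductase, averaged 32.9 ± 4.74 in KO water, against 74.1 ± 9.72 in WT water (limma, log2 -1.15 ± 0.21, adjusted p = 0.000186). PTGR1's KO minus WT of -2.93 in water lay beside -3.09 ± 0.22 for gsto2, -2.38 ± 0.24 for zgc:158387 and -1.40 ± 0.17 for gstp1. The liver, intestine, pancreas and erythroid markers moved in the same comparison, and their part in these counts was not tested. At 48 hpf in water 2 of 28 antioxidant genes were higher in KO and 0 lower, against 2.49% of all genes called. Both calls, tkta and zgc:198419 (fthl28 in the reference table), were lost without 1 of several libraries (limma, adjusted p up to 0.194 and 0.0601). The tkta call was also lost with only the compared groups fitted, and that of zgc:198419 with a pseudocount of 5.

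**Figure D4:**
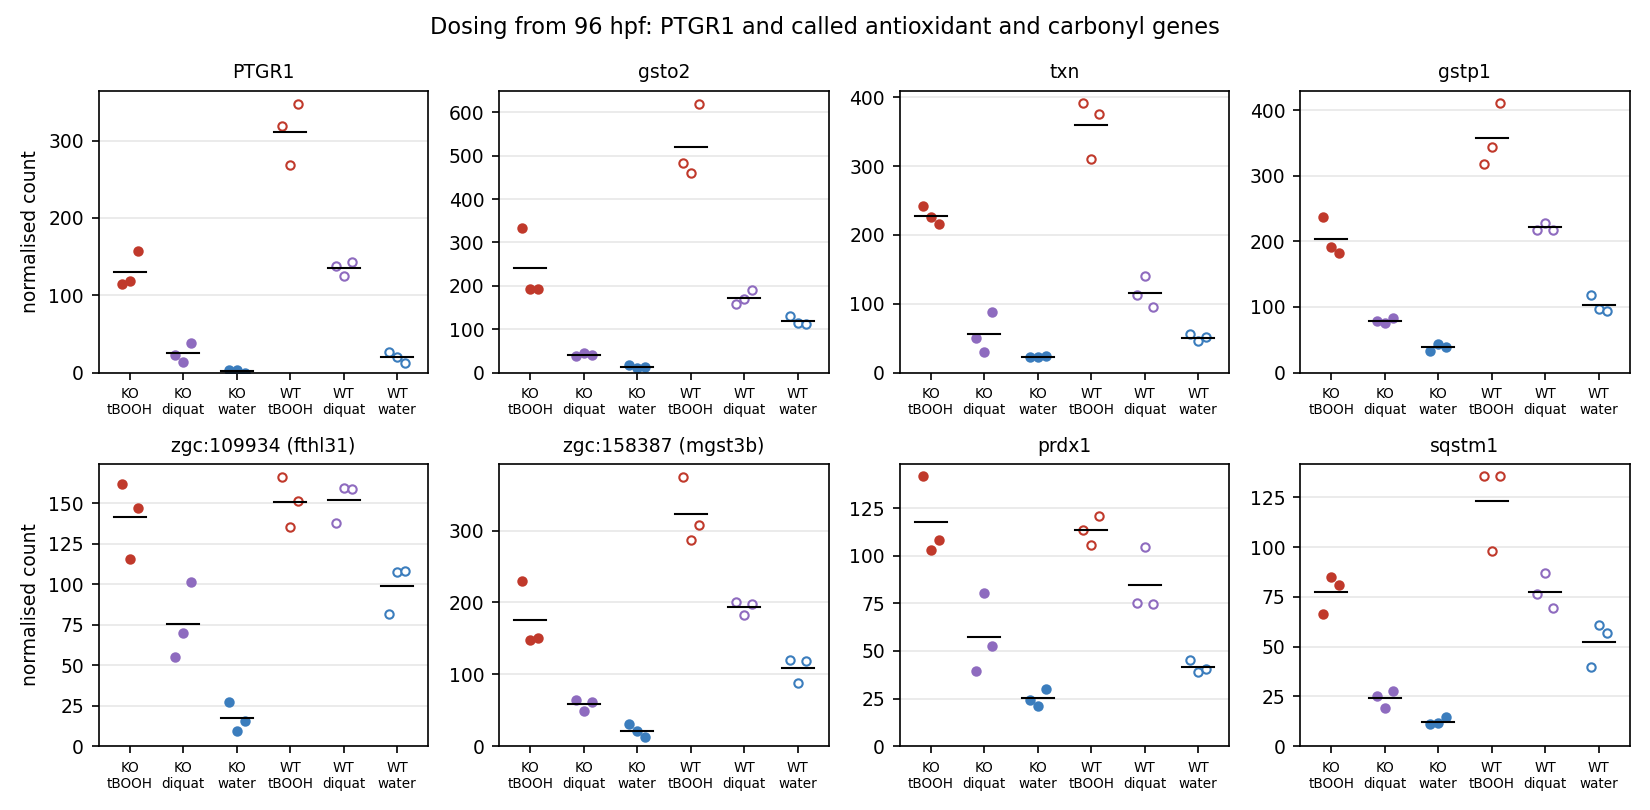
Normalised counts in each library of the 96 hpf series (filled points KO, open points WT, bars at the mean of 3 libraries) for PTGR1 and 7 called genes of the antioxidant and carbonyl lists; each panel has its own axis from 0. In all panels but those of prdx1 and zgc:109934 the WT tBOOH mean is the highest, and KO water is the lowest mean in every panel.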

How the data were processed

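Per the labels, directional poly(A) libraries of whole-embryo pools were read as 50 bp pairs. Per the submitters' processing notes, the tools were FastQC 0.11.4, TopHat2 2.0.14, Bowtie2 2.2.5, SAMtools 0.1.19, HTSeq, DESeq2 1.10.1 and R 3.2.3, with GRCz10. Neither the strand setting nor the handling of reads shared by paralogs is stated in these sources. The deposited table holds a signal made by the authors: each gene's count over its library's size factor (0.571 to 1.42). All values (100%, within 0.01 read) came out as whole reads, though in 3 columns the factor was too near 1 for that to say much. The reads recovered had a median of 0.772 M per library, 3.09% of the 25 M stated, so low genes are imprecise.

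Within each stage limma 3.58.1 in R 4.3.3 was fitted to log2(value + 1) of 18 libraries for genes with a value of 10 in 3 libraries (7783, 9725 and 11436 genes at 2, 48 and 96 hpf), with Benjamini-Hochberg adjustment over all of them and calls under 0.05. A count test, edgeR 4.0.16 on the recovered reads, was an alternative; it called 826 genes in KO tBOOH and 382 in WT tBOOH at 96 hpf, against 857 and 263 by limma. The scripts were tested on simulated data. Alternatives were a pseudocount of 5, a block for the replicate number, no filter on low values, rescaling by TMM, a fit of the compared groups alone, and each library left out. No 2 libraries were identical, and the 54 replicate pairs differed by more than sampling noise (chi-square per gene 1.21 to 10.7). The labels name no batch and separate pools but not separate parents, so p-values measure the spread between pools.

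PTGR1 and the lists were chosen with earlier results of these data known. Genes named are PTGR1, nfe2, all matched medium-chain reductases, called list members with the smallest p, and the 8 genes most like PTGR1 by each measure, of which 1 is not reported here; the neighbours in the RefSeq table (GRCz12tu) were added after values were seen. Of the table's IDs 26121 are named in the reference. The lists were medium-chain reductase relatives, prostaglandin and leukotriene genes, Nrf2-type antioxidant genes, and aldehyde and carbonyl enzymes, with marker lists beside them.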

Additional observations from a re-analysis of the deposited data

Results flagged for a closer look

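The tBOOH response at 96 hpf differed between genotypes, by limma's test of the difference itself, for 4 listed genes. Of 11436 genes 37 passed that test, all with a log2 difference of tBOOH from water that was higher in KO than in WT. gsto2 had a response 1.94 ± 0.30 larger in KO (log2, SE; adjusted p = 0.000951). zgc:198419 (fthl28 in the reference table, a ferritin gene) had one 2.40 ± 0.40 larger (adjusted p = 0.00191), and zgc:109934 (fthl31) one 2.44 ± 0.36 larger (adjusted p = 0.000605). zgc:158387 (mgst3b) had one 1.48 ± 0.33 larger (adjusted p = 0.0439), and that call was lost without any of 9 libraries, without the filter on low values and with TMM rescaling (adjusted p up to 0.201). The other 3 held without any 1 library. Within WT alone the tBOOH difference was 2.11 for gsto2, 1.57 for zgc:158387, 1.2 for zgc:198419 and 0.61 for zgc:109934, the last not called (adjusted p = 0.323). The WT call of zgc:198419 was lost without any 1 of the 6 libraries compared (limma, adjusted p up to 0.0903). All 4 genes were lower in KO than in WT water, as PTGR1 was. In normalised counts gsto2 rose from 13.4 to 240 in KO and from 119 to 521 in WT. zgc:158387 rose from 21.3 to 176 in KO and from 109 to 323 in WT, so both steps were larger in WT. The steps of zgc:198419 (5.38 to 69.9 in KO, 33.4 to 78.1 in WT) and zgc:109934 (17.5 to 141 in KO, 99.1 to 151 in WT) were larger in KO. The part of the markers that rose in KO tBOOH was not tested.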

How the results depend on the processing

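Of 180 recomputed PTGR1 differences 170 moved by less than the spread between replicates and 10 by more. This share is no measure of robustness. The replicate block, the fit without a filter and the fit of the compared groups alone cannot change a log2 difference. Leaving out 1 library can shift the difference of a pair of groups only by less than that spread. A pseudocount of 5 gave 3.28 (KO) and 2.46 (WT) for tBOOH at 48 hpf, and at 96 hpf 4.27 for KO tBOOH, 2.01 for KO diquat, -1.79 for KO minus WT in water, 0.55 for the genotype difference of the tBOOH response and -0.53 for that of diquat, whose sign thus changed. edgeR gave 6.28 (KO) and 4.59 (WT) for tBOOH at 48 hpf. Leaving out 1 library gave 0.98 to 2.03 for the tBOOH response difference. The low reads of the water groups limit these values.

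Antioxidant calls with only the compared groups fitted were 2 for KO tBOOH at 48 hpf, and at 96 hpf 0 for KO diquat, 19 for WT tBOOH and 5 for WT diquat; the last was 4 by edgeR and 4 with a pseudocount of 5. With 1 library left out they ranged from 4 to 10 (48 hpf KO tBOOH), 6 to 8 (96 hpf WT tBOOH) and 1 to 2 (WT diquat). Calls over all genes ranged from 12 to 270, 121 to 195 and 4 to 26 in these comparisons. Prostaglandin list calls were 1 in WT tBOOH and 1 in WT diquat at 96 hpf with only the compared groups, and with 1 library left out 0 to 1 (48 hpf KO tBOOH) and 1 to 2 (96 hpf KO tBOOH). Of the genes most like PTGR1, 2 (group means) and 1 (differences) were shared by Spearman's rho, and 5 (differences) with a pseudocount of 5. With only the compared groups txn in KO diquat at 96 hpf had an adjusted p of 0.850, against 0.0559 with no filter and 0.0598 with TMM. ptgr1 in tBOOH at 96 hpf, KO minus WT, ranged from -1.69 to -0.97 with 1 library left out. Of 139 named-gene differences, 123 of them called, calls were lost for 3 with a pseudocount of 5, 16 with no filter, 5 with TMM and 4 by edgeR, and for 19 with only the compared groups, where 129 could be fitted. The causes were not tested.

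Counts over all genes with only the compared groups were, at 48 hpf, 3 and 50 for tBOOH in KO and WT, 30 for WT diquat, 73 and 42 for KO minus WT in water and tBOOH, and 4 and 56 for tBOOH minus diquat in KO and WT. At 96 hpf they were 2 for KO diquat, 703 and 196 for WT tBOOH and diquat, 694 for KO minus WT in diquat, and 287 and 682 for tBOOH minus diquat. WT diquat at 48 hpf had 11 with no filter and 7 with a pseudocount of 5. WT diquat at 96 hpf had 64 by edgeR and 51 with a pseudocount of 5, and WT tBOOH minus diquat 295 by edgeR.

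Replicate numbers showed no clear pairing of the libraries at 48 and 96 hpf. The mean correlation of same-numbered deviations was -0.00964 and -0.000254 there, against 0.00486 and 0.000309 for other numbers. Of 18 libraries 4 and 8 went best with their own number. At 2 hpf the mean was 0.0377, against -0.0189 for other numbers, and 11 of 18 went best with their own. A weak pairing at 2 hpf is thus possible. Each group holds each number 1 time, so a block for the replicate number cannot change the PTGR1 differences. With the block no list count moved by over 1.5 times. WT diquat calls over all genes at 48 hpf numbered 0, against 4 without the block, and the calls of ptgesl and slc7a8a at 96 hpf were lost.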
